A study of Mus musculus with 6 samples.

Results

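The genes described here are the Eph receptors and their ephrin ligands, the semaphorins, and the plexins and neuropilins that receive semaphorins, read in mouse cells on day 3 of reprogramming with and without Rnf20. They were taken by symbol from the count table: Epha, Ephb, Efna, Efnb, Sema, Plxna to Plxnd, Nrp1 and Nrp2. This gave 52 of 16982 genes, all of which were matched to GENCODE M21 on GRCm38. They comprised 8 EphA and 5 EphB receptors, 5 ephrin-A and 3 ephrin-B ligands, 20 semaphorins of classes 3 to 7, 9 plexins and 2 neuropilins. RNA was sequenced from 3 WT (Rnf20+/+) and 3 Rnf20 knockout (KO, Rnf20-/-) libraries of C57BL/6 reprogrammable cells, which are mouse embryonic fibroblasts (MEF) infected with retroviruses carrying Oct4, Sox2, Klf4 and c-Myc (OSKM). The knockout rests on a floxed Rnf20 allele and a ubiquitous Cre that acts once 4-OH tamoxifen is added, and cells of both genotypes were infected with the 4 factors. All 6 samples are labelled as untreated, and whether WT cells also received 4-OH tamoxifen or carried the Cre is not given in the sources used here. The methods plate infected cells on mitomycin-C treated MEF feeders soon after infection, and whether feeder RNA was in these libraries is not stated. Whether the replicates were separate cultures is not given in the labels. The KO libraries did not all come from the same cells, since they differed in Y-linked RNA as described below, and p-values measure only the spread between these 6 libraries.

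As background, Ephs are receptor tyrosine kinases and ephrins are their membrane-bound ligands, so that both act where cells touch. EphA receptors mostly bind the lipid-anchored ephrin-A ligands and EphB receptors the transmembrane ephrin-B ligands, and signals pass into both cells. Semaphorins are secreted (class 3) or membrane-bound (classes 4 to 7) and signal through plexins, for most class 3 semaphorins with a neuropilin as the ligand-binding co-receptor. These families are best known from axon guidance and vessel patterning, and in fibroblasts they act on adhesion, the cytoskeleton and cell sorting.

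Rnf20, an E3 ubiquitin ligase of histone H2B, was measured first as a check of the labels. It stood at 107, 107 and 106 CPM (read counts scaled to a common library size after TMM normalization) in WT1 to WT3 and at 18.7, 18.5 and 16.4 CPM in KO1 to KO3, 16.8% of the WT mean (log2 fold change -2.57 ± 0.08 SE, adjusted p = 0.000163). The libraries held between 20545442 and 21746898 counts. KO3 stood apart: the chi-square per gene between KO3 and the other KO libraries was 92.4 and 101, against 6.04 to 8.92 between other libraries of one genotype. KO1 held 0 counts and KO3 held 1 count of Y-linked transcripts, against 4774 to 5608 in the other 4 libraries, so the KO group mixed libraries with and without Y-linked RNA. In KO3 the summed level of 6 proliferation markers, all of which fell in KO, was 127 CPM, against 377 and 438 CPM in the other KO libraries and 1063 to 1130 CPM in WT. The summed level of 7 macrophage markers, of which 0 passed the test, was 248 CPM in KO3, against 46.0 to 91.1 CPM elsewhere. Lyz2 made up 159 CPM of that KO3 sum, while Cd68 in KO3 (8.57 CPM) lay within the WT range (6.70 to 10.5 CPM). That of 10 fibroblast markers, of which 2 fell (Thy1 and Pdgfra), was 21634 CPM in KO3, against 30335 to 39856 CPM elsewhere. That of 6 epithelial markers, of which Cldn3 fell and Krt19 rose, was 21.96 CPM in KO3, against 53.6 to 77.3 CPM elsewhere. Of the 4 factors, Klf4 fell from a mean of 678 CPM in WT to 504 CPM in KO (adjusted p = 0.0176), and Pou5f1 (Oct4), Sox2 and Myc did not pass. Without KO3 these 3 passed too. By edgeR Pou5f1 then fell by 0.76 on the log2 scale (adjusted p = 0.000195), Sox2 by 0.33 (0.0025) and Myc by 0.26 (0.0314). Defining fibroblast genes such as Col1a1 (7067 to 13077 CPM) were high in each library, while 5 of 7 endothelial markers, Pecam1 and Cdh5 among them, lay at or under 0.525 CPM, Tek at 30.8 to 64.5 CPM and Vwf at up to 1.33 CPM being the others. The part of these differences in the results below was not tested, and in bulk RNA fewer cells of a type and less RNA per cell cannot be told apart.

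Of the 52 genes, 50 passed the filter on low counts and were tested. At an adjusted p under 0.05 (edgeR quasi-likelihood test, adjusted over 13386 genes), 6 rose in Rnf20 knockout cells and 15 fell. In all genes tested, 16.4% rose and 16.6% fell, against 12% and 30% of the tested members. With the thresholds of the study (adjusted p under 0.01, more than 2-fold, mean FPKM over 1 in WT or KO) 2 members rose, Epha2 and Sema3c, and 4 fell, Epha1, Sema4d, Sema6a and Sema6c; 1.5% of all genes rose and 2.08% fell by that rule. All KO libraries lay above all WT libraries for 7 tested members and below them for 25, where 26.6% and 28.2% of all genes did so, and the libraries overlapped for the other 18. The median log2 fold change of the tested members was -0.30, against -0.00032 over all genes. Without KO3 it was -0.26, and 11 members rose and 23 fell, where 23.9% of all genes rose and 24.2% fell.

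Ligands and receptors were also counted apart. Of 28 ephrins and semaphorins, 1 rose and 10 fell. Of 22 tested Ephs, plexins and neuropilins, 5 rose and 5 fell. Of all genes tested, 16.4% rose and 16.6% fell. Without KO3, 5 of the ligands rose and 13 fell, and 6 of the receptors rose and 10 fell. In that fit 23.9% of all genes rose and 24.2% fell. The split between ligands and receptors was not tested as a difference. The plot of single libraries shows each member beside the range of the WT libraries.

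**Figure D1:**
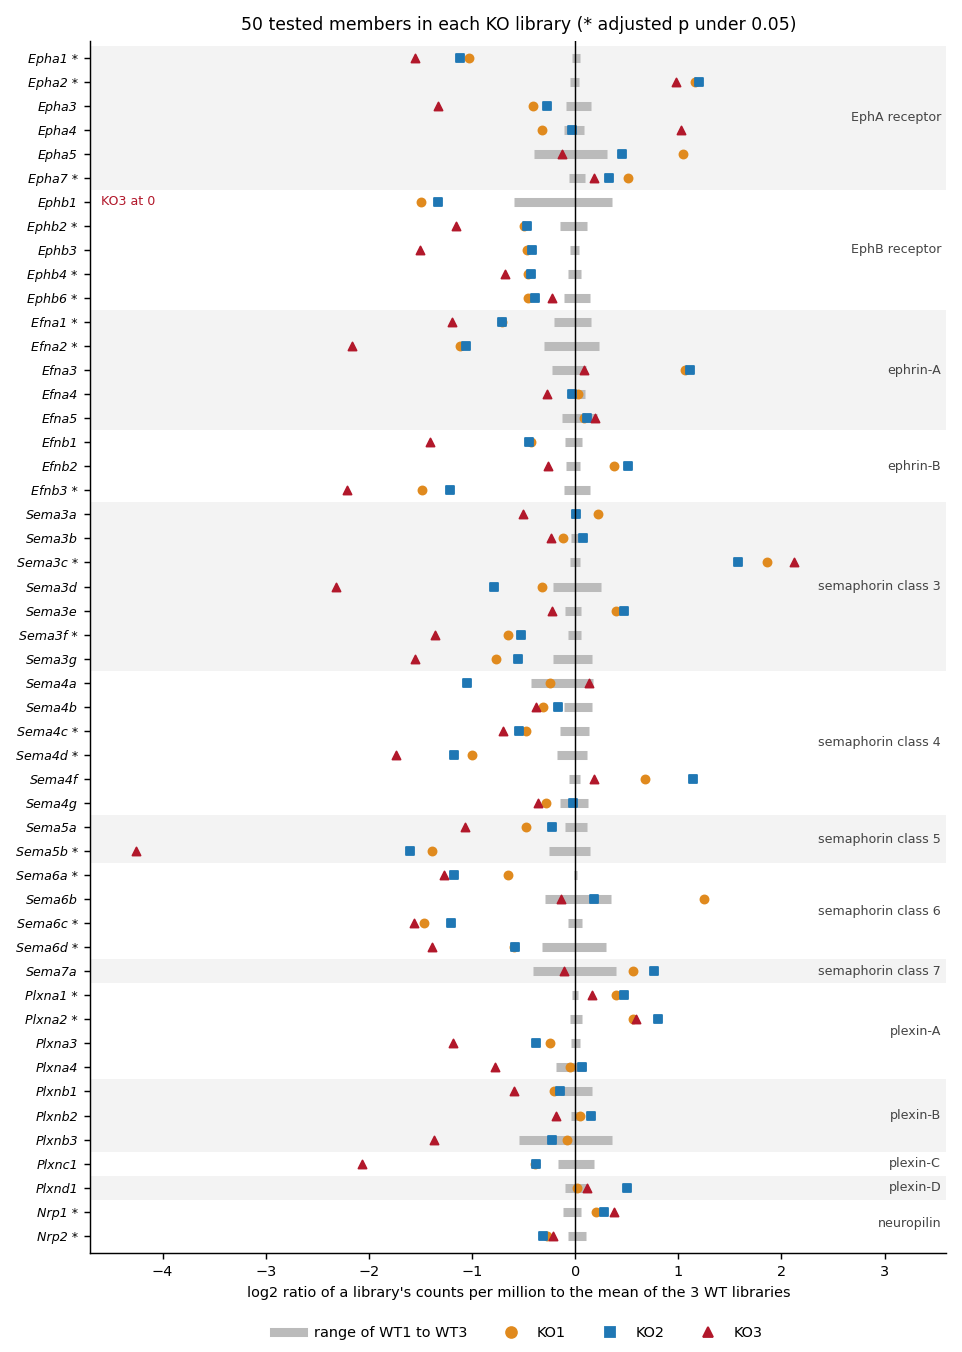
Each row is 1 of 50 tested members and the horizontal axis is the log2 ratio of a library's CPM to the mean of the 3 WT libraries, with a grey bar for the range of WT1 to WT3 and a symbol for each KO library. Every plotted EphB point lies left of its WT bar, and Ephb1 in KO3, at 0 counts, has no ratio. Sema3c lies furthest to the right, and KO3 (triangles) is the lowest KO library for 41 of 50 members.

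Among EphA receptors the clearest changes were a rise of Epha2 and a drop of Epha1. Epha2, a receptor found in many epithelial and mesenchymal cells (chr4:141301240-141329384, plus strand), stood at 29.7, 28.6 and 30.2 CPM in WT1 to WT3 and at 66.3, 67.9 and 58.2 CPM in KO1 to KO3. The lowest KO library was thus well above the highest WT library, and the change was 2.17-fold (log2 fold change 1.12 ± 0.08 SE, adjusted p = 0.00178). Epha1, a receptor first found in carcinoma cells (chr6:42358487-42373268, minus strand), stood at 30.9, 31.1 and 32.6 CPM in WT and at 15.4, 14.6 and 10.8 CPM in KO. It fell by 1.21 on the log2 scale (SE 0.14, adjusted p = 0.00369), and without KO3 by 1.07. Its exons overlap those of Zyx on the opposite strand, and whether the counting used strand is not stated.

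The promoters of both genes, 250 bases up to the RefSeq transcription start on GRCm38.p6, are shown because these receptors of one family moved in opposite directions. Each is written 5′ to 3′ on the strand of its gene, for chr4:141300971-141301220 (Epha2, plus strand) and chr6:42373269-42373518 (Epha1, minus strand). Capitals mark GGGCGG or its reverse complement CCGCCC, the GC box that SP and KLF factors, Klf4 among them, are known to bind.
Epha2: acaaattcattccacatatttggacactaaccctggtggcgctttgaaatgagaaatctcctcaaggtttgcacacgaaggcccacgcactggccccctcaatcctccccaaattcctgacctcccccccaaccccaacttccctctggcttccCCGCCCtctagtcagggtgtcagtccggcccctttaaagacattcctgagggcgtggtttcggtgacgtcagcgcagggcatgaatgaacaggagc
Epha1: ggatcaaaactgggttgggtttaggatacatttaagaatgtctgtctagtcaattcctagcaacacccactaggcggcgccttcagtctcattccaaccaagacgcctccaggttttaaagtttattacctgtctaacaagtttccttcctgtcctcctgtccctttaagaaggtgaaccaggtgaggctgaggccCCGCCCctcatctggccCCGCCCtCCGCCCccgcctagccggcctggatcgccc
The Epha2 window held 1 such match, 96 to 91 bases before the start, and the Epha1 window held 3, between 54 and 25 bases before it, 2 of them next to each other. Of 46 members with a promoter in the RefSeq table, 35 (76.1%) held GGGCGG on either strand, against 32.7% of 32851 promoter windows of the same length. Each member counted with 1 window, while the comparison held every window of the RefSeq table, more than 1 for some genes. A few members' windows lay far from the gene's 5′ end in GENCODE, by 271370 bases for Sema3a and 37064 for Sema4d. The members' windows were also richer in G and C, with a median of 64.6% against 52.4%. The other motifs searched on both strands were ATGCAAAT, bound by POU factors such as Oct4, found in 0 of 46 members' windows (1.6% of all), CATTGTT, a SOX motif, in 2 (4.35% against 3.29%), and CACGTG, the E-box of MYC, in 2 (4.35% against 6.02%). A match describes the sequence and does not show binding.

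The remaining EphA receptors moved less. Epha7 stood at 57.0, 51.2 and 52.3 CPM in WT and at 76.4, 67.1 and 60.9 CPM in KO, and rose by 0.35 on the log2 scale (SE 0.10, adjusted p = 0.0400). This call was lost when any library other than KO3 was left out (adjusted p up to 0.137). Epha3 had the highest FPKM of the EphA receptors as a mean over the 6 libraries (12.6 FPKM), while in KO alone Epha2 was higher (15.8 against 10.02 FPKM). The first rank depends on the scale. In CPM per kb of gene length Epha3 had 13.3 in WT and 8.79 in KO, and Epha2 had 7.54 and 16.4. Epha3 had 71.0, 84.1 and 71.0 CPM in WT and 56.7, 62.5 and 30.005 CPM in KO. The genotypes did not overlap, with KO3 far below the other KO libraries and a log2 fold change of -0.60 ± 0.26 SE (adjusted p = 0.118), and of -0.34 without KO3 (adjusted p = 0.00931). Epha4 was the one EphA receptor high in KO3 alone, at 57.0 CPM against 22.5 to 29.8 CPM in the other 5 libraries (log2 fold change 0.34, adjusted p = 0.449). Epha5 overlapped between genotypes (3.75 to 6.13 CPM in WT, 4.52 to 10.2 CPM in KO). Epha8 and Epha10 were too low to be tested, Epha8 with 7 to 14 counts per WT library and 0 to 9 per KO library, and Epha10 with 0 counts in WT and 1 to 3 in KO, which is at or under the floor of 3 counts.

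On a per-length scale (CPM per kb of gene length) the EphA sum overlapped between WT (43.5 ± 0.49, SD, n = 3) and KO (46.0 ± 3.42), while the shares of Epha1 and Epha2 did not. Epha2 gave 16.6% to 17.9% of that sum in WT and 35.4% to 36.1% in KO, and Epha1 gave 21.6% to 23.1% in WT and 7.83% to 9.85% in KO. With the FPKM of the authors Epha2 had a share between 14.9% and 16.4% in WT and between 30.7% and 34.4% in KO. Shares of one sum depend on each other and are given as a description.

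**Figure D2:**
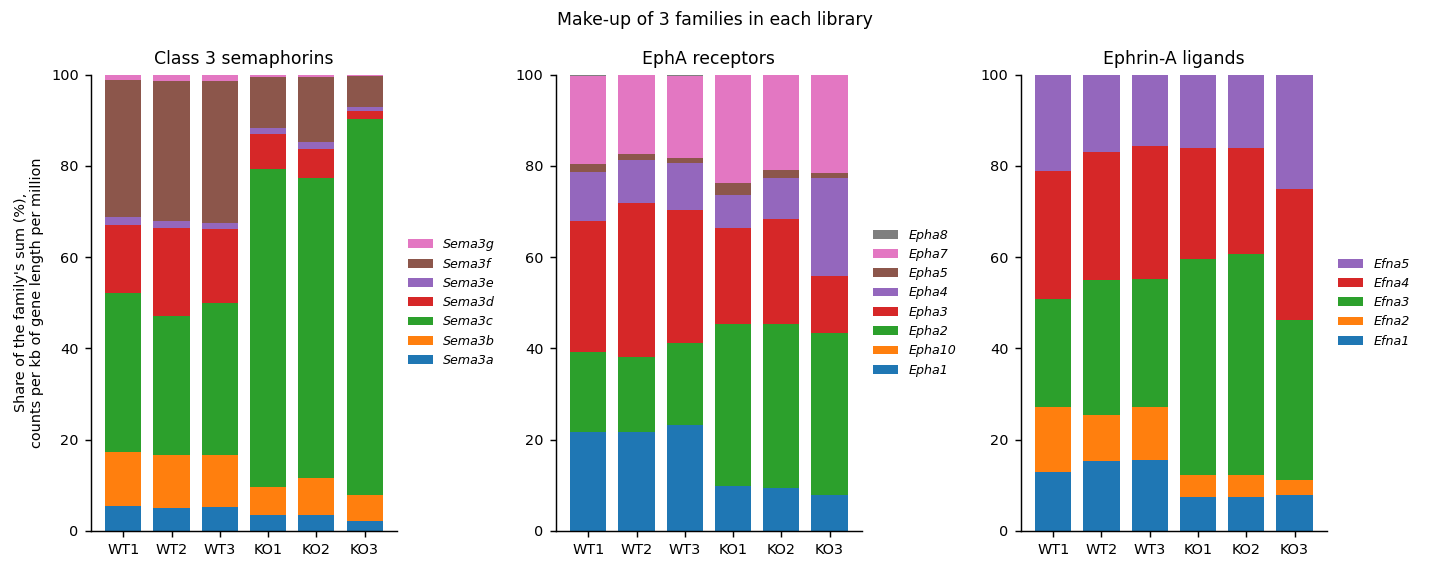
Stacked bars give the share (%) of each gene in its family's sum of CPM per kb of gene length, for each of the 6 libraries, in class 3 semaphorins, EphA receptors and ephrin-A ligands. Sema3c takes 30.5% to 34.8% of class 3 in WT and 65.7% to 82.4% in KO, Epha2 takes a larger share in KO while Epha1 and Epha3 take a smaller one, and the share of Efna3 is larger in KO1 and KO2 than in KO3.

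EphB receptors, the partners of ephrin-B ligands, were lower in KO. All 5 had every KO library below every WT library, as did 28.2% of all genes tested. Of them 3 passed the test, where 16.6% of all genes tested fell. Ephb4, known for its role in veins and the EphB receptor with the highest level per length (mean 30.4 FPKM), stood at 150, 163 and 158 CPM in WT and at 114, 116 and 98.1 CPM in KO, and fell by 0.52 on the log2 scale (SE 0.09, adjusted p = 0.00821). Its exons overlap those of Zan on the opposite strand. Ephb2, a receptor of axon pathfinding and synapses, had 78.4, 65.5 and 73.5 CPM in WT and 51.5, 52.6 and 32.6 CPM in KO. It fell by 0.67 (SE 0.19, adjusted p = 0.0354), a call that was lost without any single WT library (adjusted p 0.0786 to 0.111) and kept without each KO library. Ephb6, a receptor whose kinase domain is inactive, had 26.2, 27.4 and 31.3 CPM in WT and 20.7, 21.6 and 24.1 CPM in KO and fell by 0.35 (adjusted p = 0.0448, up to 0.147 when a library other than KO3 was left out).

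The other 2 EphB receptors did not pass. Ephb3 had 86.9, 92.7 and 90.8 CPM in WT and 65.0, 67.4 and 31.8 CPM in KO, with KO3 well below the other KO libraries. Its log2 fold change was -0.72 ± 0.27 SE (adjusted p = 0.0780), and -0.44 without KO3 (adjusted p = 0.000227). Ephb1 was low, with 0.713 to 1.38 CPM in WT and 0 to 0.427 CPM in KO (adjusted p = 0.0923), and no FPKM was given for it. Summed per length, the EphB receptors stood at 77.8 ± 2.54 FPKM in WT (SD, n = 3) and at 54.7, 56.3 and 43.5 FPKM in KO1 to KO3. No KO library overlapped a WT library in that sum, in contrast to EphA.

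**Figure D3:**
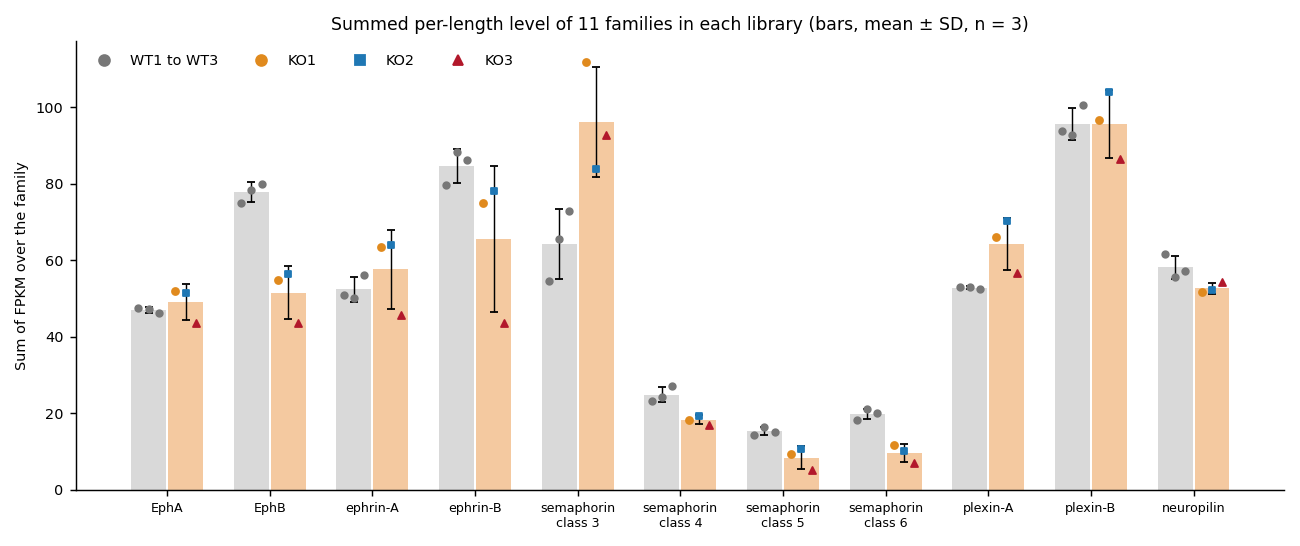
Bars give the mean ± SD (n = 3) of the summed FPKM of 11 families on a linear axis, and points give each library, WT in grey and KO1 to KO3 in colour. EphB and semaphorin classes 4, 5 and 6 are lower in each KO library than in each WT library, as is ephrin-B, class 3 and plexin-A are higher in each, and EphA, ephrin-A and plexin-B overlap.

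The ephrin-A genes went separate ways. Efna1 and Efna2, ligands of EphA receptors, both fell: Efna1 from 8.75, 10.3 and 11.2 CPM in WT to 6.21, 6.17 and 4.43 CPM in KO (log2 fold change -0.85 ± 0.19 SE, adjusted p = 0.0170). Efna2 had 13.3, 9.16 and 11.4 CPM in WT and 5.203, 5.41 and 2.52 CPM in KO (log2 fold change -1.36 ± 0.31 SE, adjusted p = 0.0182). Both had every KO library below WT, but Efna1 lost its call without WT2 (adjusted p = 0.0681) or WT3 (0.0764), and Efna2 without WT1 (0.0699) or WT3 (0.0717). Efna3 was the opposite case. It had 23.4, 29.1 and 29.4 CPM in WT and 57.0 and 58.9 CPM in KO1 and KO2, but 29.0 CPM in KO3, within the WT range. Over 3 libraries it did not pass (log2 fold change 0.82 ± 0.27 SE, adjusted p = 0.0545), and without KO3 it did (1.09, adjusted p = 1.41e-05). DESeq2 called it with all libraries (adjusted p = 0.00973).

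Efna1, Efna3 and Efna4 are neighbours on chromosome 3, with gaps of 32757 bases between Efna1 and Efna3 and 10425 bases between Efna3 and Efna4. Their log2 fold changes were -0.85, 0.82 and -0.09, so genes beside each other did not move together. Efna4 overlapped between genotypes, with 18.7 to 20.8 CPM in WT and 16.1 to 19.7 CPM in KO. The exons of Efna3 and Efna4 each overlap an antisense gene (Gm15998 and 4731419I09Rik). Efna5, which lies on chromosome 17, also overlapped (49.2 to 62.4 CPM in WT, 57.2 to 61.3 CPM in KO).

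Of the ephrin-B ligands, Efnb3 had the largest drop and the lowest level. Efnb3, known as a midline barrier for axons, had 4.09, 4.89 and 4.27 CPM in WT and 1.58, 1.90 and 0.953 CPM in KO, and fell by 1.58 (SE 0.29, adjusted p = 0.0107, and 0.0505 without WT2). Its mean level was 1.34 FPKM in WT and 0.454 FPKM in KO. Efnb1, an X-linked ligand of EphB receptors with the highest level per length of all ephrins (mean 47.0 FPKM), had 173, 194 and 190 CPM in WT and 139, 136 and 70.1 CPM in KO. All KO libraries were lower, KO3 by far the most, and the test did not pass (log2 fold change -0.69 ± 0.25 SE, adjusted p = 0.0712). Without KO3 it did (-0.44, adjusted p = 0.000308), and DESeq2 called it with all libraries (adjusted p = 0.0197). Efnb2, the arterial ligand of Ephb4, was higher in KO1 and KO2 (146 and 161 CPM) than in WT (106 to 117 CPM) and lower in KO3 (93.8 CPM), with an adjusted p of 0.354. Within the summed FPKM of the ephrins, Efnb1 gave 40.6% to 44.1% in WT and 30.7%, 29.4% and 25.3% in KO1 to KO3.

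Among semaphorins, Sema3c showed the largest rise of all members. Sema3c is a secreted class 3 ligand that acts through neuropilins with plexins and is known from outflow tract development and tumour cell migration (chr5:17574281-17730268, plus strand). It stood at 82.4, 77.2 and 80.5 CPM in WT and at 291, 240 and 349 CPM in KO. The WT libraries lay within a few CPM of each other while every KO library was about 3 or more times as high, a 3.66-fold change (log2 fold change 1.87 ± 0.14 SE, adjusted p = 0.00178). It was one of few members with KO3 as the highest library. Without KO3 the log2 fold change was 1.73 (adjusted p = 5.42e-07). Per length it went from 17.5 FPKM in WT to 62.8 FPKM in KO, and it was the highest semaphorin per length in KO, with 13.04% to 15.8% of the summed semaphorin FPKM in WT and 42.0% to 56.9% in KO.

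Sema3f, a ligand that prefers Nrp2, moved the other way. It had 49.9, 54.4 and 52.2 CPM in WT and 33.3, 36.3 and 20.4 CPM in KO and fell by 0.80 (SE 0.20, adjusted p = 0.0270), a call lost without any single WT library (adjusted p 0.0737 to 0.0910). In WT, Sema3c and Sema3f had nearly the same level per length (17.5 FPKM each), and in KO 62.8 and 9.65 FPKM. Sema3b, next to Sema3f on chromosome 9 with 72271 bases between them, overlapped between genotypes with 17.9 to 18.9 CPM in WT and 15.7 to 19.4 CPM in KO. Sema3d and Sema3g had each KO library below WT but did not pass. Sema3d had 42.6 to 58.6 CPM in WT and 39.4, 28.6 and 9.86 CPM in KO (log2 fold change -0.93 ± 0.44 SE, adjusted p = 0.150). Sema3g had 2.52 to 3.28 CPM in WT and 1.0002 to 1.99 CPM in KO (adjusted p = 0.0654). Sema3a and Sema3e, 422711 bases apart on chromosome 5, overlapped between genotypes in CPM.

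The FPKM of Sema3a needs care. In the WT libraries its CPM were 23.2, 23.4 and 22.5, while the FPKM of the authors were 4.71, 9.08 and 17.5 in the same libraries. Its mean FPKM in WT was 4.56 times the value that counts and gene length give. The shares of class 3 are therefore given on counts per kb: Sema3c held 34.8%, 30.5% and 33.5% of the class in WT1 to WT3 and 69.5%, 65.7% and 82.4% in KO1 to KO3.

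In class 4, membrane-bound semaphorins of which Sema4d is the ligand of plexin-B1, 2 of 6 fell, where 16.6% of all genes tested did. Sema4d (chr13:51685529-51793747, minus strand) had 11.1, 10.7 and 9.11 CPM in WT and 5.16, 4.56 and 3.10 CPM in KO. It fell by 1.27 (SE 0.22, adjusted p = 0.00840), and its mean level was 2.45 FPKM in WT and 1.01 FPKM in KO, against the limit of 1 FPKM. Sema4c, a ligand of Plxnb2, had 39.5, 43.7 and 48.1 CPM in WT and 31.5, 29.96 and 27.0 CPM in KO and fell by 0.57 (SE 0.10, adjusted p = 0.0103). Its exons overlap an antisense gene, D430040D24Rik. Sema4b had each KO library below WT without passing (log2 fold change -0.28, adjusted p = 0.0925), and Sema4f had each KO library above WT without passing (3.18 to 3.42 CPM in WT; 5.30, 7.31 and 3.76 CPM in KO; adjusted p = 0.0782). Sema4a and Sema4g overlapped.

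Both class 5 semaphorins, transmembrane proteins with thrombospondin repeats, had all KO libraries below WT, as did 28.2% of all genes tested. Sema5b had 16.8, 21.2 and 22.2 CPM in WT and 7.68, 6.60 and 1.05 CPM in KO. It fell by 1.97 on the log2 scale, the largest drop among the members that passed, but with a wide error (SE 0.58, adjusted p = 0.0407). Its call was lost without any single WT library (adjusted p 0.0932 to 0.126) and without KO2 (0.0687), and without KO3 the log2 fold change was -1.49 (adjusted p = 2.95e-05). Sema5a had 100.7, 110 and 95.2 CPM in WT and 73.4, 87.3 and 48.8 CPM in KO (log2 fold change -0.55 ± 0.20 SE, adjusted p = 0.0780).

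Class 6 semaphorins, transmembrane ligands of plexin-A receptors, fell in 3 of 4 cases, where 16.6% of all genes tested fell. Sema6c (chr3:95160457-95174024, plus strand) had 12.7, 13.4 and 12.2 CPM in WT and 4.63, 5.56 and 4.33 CPM in KO, and fell by 1.40 (SE 0.14, adjusted p = 0.00309). Here KO3 lay close to the other KO libraries. Sema6a, which acts on Plxna2 and Plxna4 in the developing brain, had 47.5, 48.2 and 47.2 CPM in WT and 30.3, 21.1 and 19.7 CPM in KO. It fell by 1.01 (SE 0.16, adjusted p = 0.00771), so that it lay just inside the 2-fold limit of the study, and by 0.89 without KO3, just outside it. Sema6d had 28.3, 43.4 and 34.5 CPM in WT and 23.5, 23.7 and 13.5 CPM in KO and fell by 0.81 (SE 0.25, adjusted p = 0.0487), a call kept only without KO3 among the libraries left out in turn (adjusted p 0.0603 to 0.157 for the others). Sema6b was low and overlapped, with 0.856 to 1.33 CPM in WT and 0.953 to 2.48 CPM in KO. Sema7a, the lipid-anchored semaphorin, overlapped too (4.18 to 7.32 CPM in WT, 5.14 to 9.45 CPM in KO).

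The promoter of Sema6c is shown as that of the member with the largest drop past the study's thresholds, from chr3:95160170-95160419 of GRCm38.p6 on the plus strand, with the same capitals.
Sema6c: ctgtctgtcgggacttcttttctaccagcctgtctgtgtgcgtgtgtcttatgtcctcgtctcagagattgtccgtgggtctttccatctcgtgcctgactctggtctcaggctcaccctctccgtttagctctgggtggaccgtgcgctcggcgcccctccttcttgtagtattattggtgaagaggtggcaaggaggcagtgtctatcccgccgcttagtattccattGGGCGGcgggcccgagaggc
It held 1 GC box, 20 to 15 bases before the RefSeq start, and none of the other motifs searched.

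**Figure D4:**
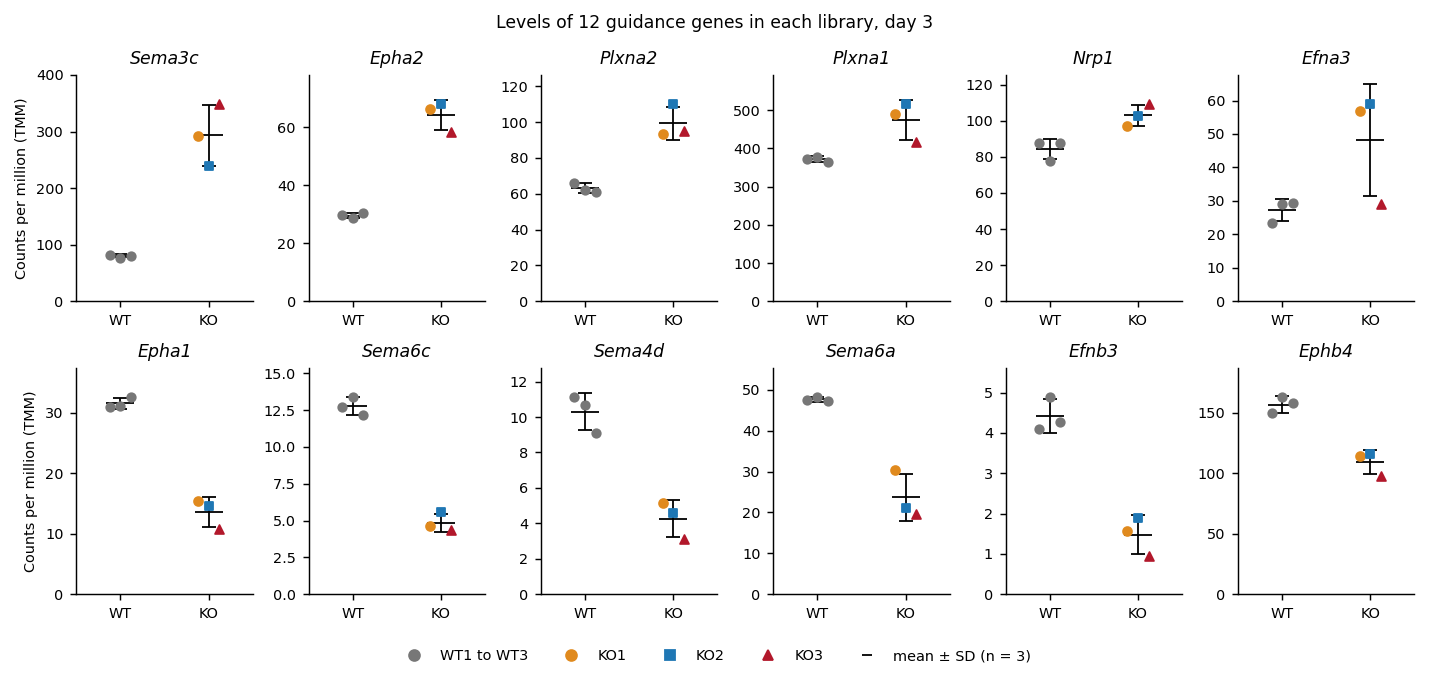
Each panel gives 1 gene, with CPM on a linear axis from 0, the 3 WT libraries in grey, KO1 to KO3 as coloured symbols, and black marks for mean ± SD (n = 3). Sema3c, Epha2 and Plxna2 rise in each KO library, Epha1, Sema6c, Sema4d, Sema6a, Efnb3 and Ephb4 fall in each, and Efna3 in KO3 (29.0 CPM) lies among the WT libraries.

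Of the plexins, the receptors of semaphorins, 2 of 9 rose and 0 fell at an adjusted p under 0.05 by edgeR, with 0 lower by DESeq2 and 1 lower at an unadjusted p under 0.05. By edgeR 16.4% of all genes tested rose and 16.6% fell. Both risers were plexin-A receptors, which pair with neuropilins for class 3 ligands and bind class 6 ligands directly. Plxna2 had 66.2, 62.3 and 61.2 CPM in WT and 93.5, 110 and 95.0 CPM in KO and rose by 0.65 (SE 0.09, adjusted p = 0.00491). Plxna1 had 372, 379 and 364 CPM in WT and 490, 516 and 417 CPM in KO and rose by 0.35 (SE 0.09, adjusted p = 0.0299), a call lost when any library other than KO3 was left out (adjusted p up to 0.111). Its exons overlap the antisense gene Gm26811. The X-linked Plxna3 had each KO library below WT (41.5 to 44.2 CPM against 36.1, 32.8 and 18.9 CPM, adjusted p = 0.103), and Plxna4 overlapped at 1.67 to 3.09 CPM.

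Plxnb2, the receptor of Sema4c, had the highest level per length of all members, with a mean of 91.1 FPKM. It had 615, 608 and 650 CPM in WT and 645, 697 and 550 CPM in KO, which overlap, with a log2 fold change of 0.01 ± 0.10 SE (adjusted p = 0.921). Plxnb1 and Plxnb3 overlapped too (27.5 to 46.6 CPM and 0.429 to 1.42 CPM over the 6 libraries). Plxnc1, the receptor of Sema7a, had 9.59 to 12.3 CPM in WT and 8.26, 8.26 and 2.57 CPM in KO (adjusted p = 0.190). Plxnd1, an endothelial receptor that also binds Sema3e, overlapped with 30.1 to 34.8 CPM in WT and 32.6 to 45.6 CPM in KO. Per length the order of the plexins was Plxnb2, then Plxna1 (mean 46.0 FPKM), with all others under 7 FPKM.

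The neuropilins, co-receptors of class 3 semaphorins and of VEGF, moved in opposite directions by small amounts. Nrp1, which binds Sema3a and also serves Sema3c, had 87.7, 78.0 and 87.5 CPM in WT and 97.2, 102 and 109 CPM in KO and rose by 0.29 (SE 0.08, adjusted p = 0.0379). Nrp2, the co-receptor of Sema3f and Sema3c and the higher of both per length (mean 39.7 FPKM), had 321, 290 and 285 CPM in WT and 247, 241 and 257 CPM in KO and fell by 0.27 (SE 0.07, adjusted p = 0.0358). Their libraries did not overlap, but Nrp1 kept its call only without KO1 or KO3 and Nrp2 only without KO3 when 1 library was left out (adjusted p up to 0.128 and 0.126). Of the summed neuropilin FPKM, Nrp1 gave 23.96% to 26.2% in WT and 31.3% to 33.1% in KO.

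Read by ligand and receptor, Sema3c rose 3.66-fold while Nrp1 and the plexin-A receptors Plxna1 and Plxna2 rose 1.22, 1.28 and 1.57-fold and Nrp2 fell. In class 6, 3 of 4 ligands fell while Plxna1 and Plxna2 rose. Plxna3, with each KO library below WT, and Plxna4, which overlapped, did not pass. Sema4d and Sema4c fell while their receptors Plxnb1 and Plxnb2 did not pass the test. Of the EphB and ephrin-B genes, 3 of 5 receptors and 1 of 3 ligands fell, where 16.6% of all genes tested did. The calls of Epha7, Ephb6, Nrp1, Nrp2, Plxna1, Sema5b and Sema6d were lost when most single libraries were left out. These are RNA levels in bulk cells, and neither binding nor signalling was measured.

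The genes around these receptors were read from a fixed list of 103 other guidance cues, co-receptors, proteases and effectors, of which 99 were tested. Of these, 31 rose and 9 fell, where 16.4% and 16.6% of all genes tested did, and their median log2 fold change was 0.15. The count that rose was 18, 15 and 13 without WT1, WT2 and WT3 in turn, and the count that fell was 6, 5 and 5. By group, 11 of 31 effectors of Ephs and ephrins rose and 2 fell, 9 of 26 effectors of plexins rose and 3 fell, 7 of 22 tested other cues and receptors rose and 3 fell, 4 of 16 co-receptors and partners rose and 1 fell, and 0 of 4 proteases passed, by edgeR, by DESeq2 or at an unadjusted p under 0.05. Among effectors that act through the cytoskeleton, Rnd1, a small GTPase that binds plexins, went from 1.43, 1.23 and 1.42 CPM in WT to 3.53, 3.70 and 22.6 CPM in KO (log2 fold change 2.86 ± 0.80 SE, adjusted p = 0.0354), with KO3 far above the others. Its log2 fold change was 1.41 without KO3, and the call was lost without any single WT library (adjusted p up to 0.119). Grip1, a scaffold of ephrin-B ligands, went from 1.38, 0.949 and 0.949 CPM to 3.15, 4.23 and 2.19 CPM (1.54 ± 0.33 SE, adjusted p = 0.0166), a call lost without WT2 or WT3 (adjusted p up to 0.0756). Flt4, the VEGF-C receptor that pairs with Nrp2, went from 1.24, 1.33 and 1.61 CPM to 3.39, 3.32 and 11.9 CPM (2.15 ± 0.56 SE, adjusted p = 0.0286). KO3 was again far above the others, the log2 fold change without it was 1.27, and the call was lost without any single WT library (adjusted p up to 0.101). Robo3 passed the test as well, but with 0 to 0.143 CPM in WT it was at or under 3 counts there, and 0.522 to 1.14 CPM in KO.

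The 4 listed genes with the largest drop were Unc5d and Dcc, both netrin receptors, Rnd2 and Rgma. Unc5d had 7.37, 8.88 and 7.45 CPM in WT and 3.77, 2.94 and 0.905 CPM in KO (log2 fold change -1.63 ± 0.45 SE, adjusted p = 0.0344), and Dcc had 4.99, 6.50 and 5.12 CPM against 3.05, 2.47 and 0.905 CPM (-1.37 ± 0.42 SE, adjusted p = 0.0450). Both had KO3 as the lowest library, and both calls were lost without KO2 or any single WT library (adjusted p up to 0.111 and 0.141). The other netrin receptors on the list, Neo1, Unc5a, Unc5b and Unc5c, did not pass. Rnd2, a GTPase of the same family as Rnd1, had 18.4, 19.6 and 20.8 CPM in WT and 9.93, 9.92 and 7.57 CPM in KO (-1.10 ± 0.14 SE, adjusted p = 0.00405). Rgma, a ligand of neogenin, had 51.1, 49.7 and 49.97 CPM in WT and 28.4, 30.9 and 25.6 CPM in KO (-0.83 ± 0.09 SE, adjusted p = 0.00321), while its relative Rgmb rose by 0.53 (adjusted p = 0.0256, and up to 0.0968 when 1 library was left out).

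KO3 set much of the spread of these families. It was the lowest KO library for 41 of 50 tested members (82%) and the highest for 7 (14%), where over all genes tested it was lowest for 44% and highest for 43.8%. The 7 members with KO3 highest were Epha4, Ephb6, Efna5, Sema3c, Sema4a, Nrp1 and Nrp2. Without KO3, 13 more members passed the test, 5 higher (Efna3, Efnb2, Epha5, Sema4f, Sema7a) and 8 lower (Efnb1, Epha3, Ephb1, Ephb3, Plxna3, Plxnc1, Sema3d, Sema5a), and all 21 called members kept their call and direction. Calls rose over all genes as well, from 16.4% higher and 16.6% lower to 23.9% and 24.2%. KO3 was also the library with the lowest summed proliferation markers and the highest summed macrophage markers given above, and the part of either was not tested.

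**Figure D5:**
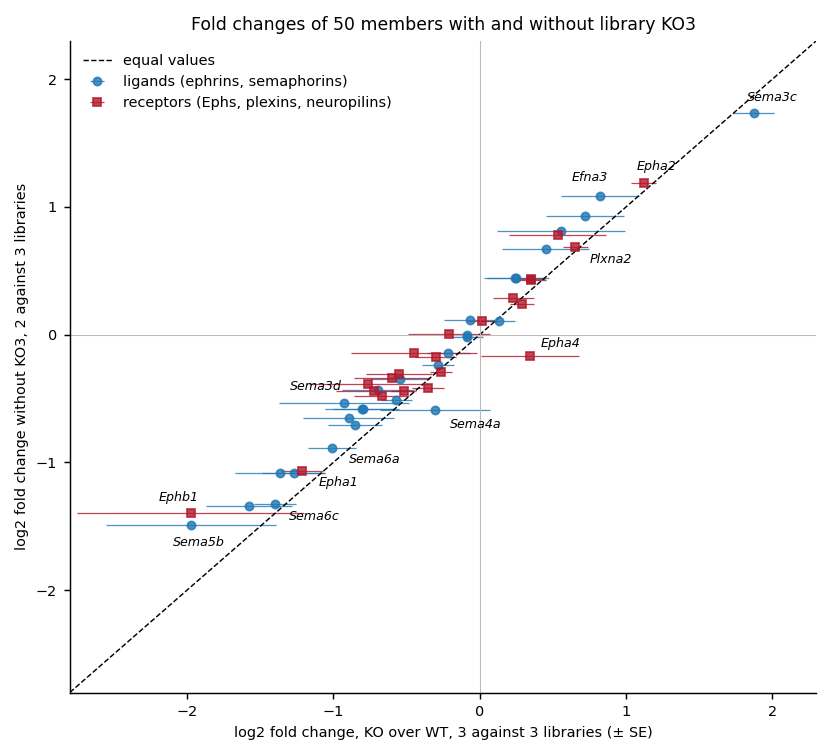
Each point is 1 of 50 tested members, with the log2 fold change from 3 against 3 libraries (± SE) on the horizontal axis and the one without KO3 on the vertical axis. Most points lie above the dashed line of equal values, which is a less negative or more positive change without KO3, Epha4 lies furthest below it, and Sema3c moves from 1.87 to 1.73.

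The Y-linked transcripts split the KO group as well, with KO2 the only KO library that held them, like the WT libraries. With a term for Y-linked transcripts the genotype estimate rests on KO2. It gave log2 fold changes of 1.58 for Sema3c, 1.20 for Epha2, 0.80 for Plxna2, -1.20 for Sema6c, -1.11 for Epha1 and -1.18 for Sema6a. Most calls were lost in that fit, among the members as over all genes, and the calls of Sema6c, Epha1 and Sema6a were among those lost. Over all libraries Sema3c, Epha2, Plxna2, Sema6c, Epha1 and Sema6a stood at 1.87, 1.12, 0.65, -1.40, -1.21 and -1.01. They were picked by their results with the Y-linked term, so these values do not speak for the other members. With that term Sema3f went from -0.80 to -0.52 and Plxna1 from 0.35 to 0.47. Beyond KO2, genotype and the lack of Y-linked RNA cannot be told apart.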

How the data were processed

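RNA-seq of 3 WT and 3 Rnf20 knockout libraries was analysed, grouped by the sample labels. The members and the gene lists were chosen with earlier results of these data known. The authors made stranded poly(A)-selected libraries, used HISAT2 2.1.0 to align the read pairs (GRCm38/mm10) and deposited raw counts per gene with gene lengths, which were used without rounding. The counting program and its strand setting are not given in the sources used here. The authors deposited FPKM values for 12633 genes, computed with Cufflinks 2.1.1, which were used for levels per length and the FPKM limit. The authors' table also holds log2 fold changes and an FDR, which were not used.

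Counts were analysed in R 4.3.3 with edgeR 4.0.16 (TMM, filterByExpr, quasi-likelihood test, no covariate, Benjamini-Hochberg over 13386 genes). CPM use TMM library sizes. SE is the absolute log2 fold change over the square root of F. On simulated counts for this comparison (13386 genes), the test called 68% of genes given a log2 change of 1, 94% of those given 2 and 0.091% of unchanged genes. The 100 genes changed at each size were drawn from genes that were not low. No simulated library stood apart as KO3 does, and the Y-linked split was not simulated. These shares therefore do not carry over to low members such as Ephb1. Library totals of 20545442 to 21746898 counts limit genes near 3 counts, which is 0.142 to 0.143 CPM, and this covers counting error only. Same-numbered libraries did not deviate together (r = -0.07, 0.04 and 0.01 across genes), so numbers were not taken as pairs. Values are given for every member past the study's thresholds, for those with an adjusted p under 0.05 and an absolute log2 fold change of at least 0.5, for the highest member per length of each of 6 families, and for up to 4 list genes in each direction with the largest fold change; other members are given more briefly. Positions are from GENCODE M21 and promoters from RefSeq (GRCm38.p6), which held 46 of 52 members; 1 window a gene was used, the one nearest the 5′ end in GENCODE, and a window with over 30 bases in an exon was not printed. Alternatives were RLE size factors, DESeq2 1.42.0, other count filters and FPKM limits, a replicate block, a term for Y-linked transcripts and each library left out.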

Additional observations from a re-analysis of the deposited data

How the results depend on the processing

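RLE size factors, DESeq2, other count filters and other FPKM rules left the counts of members and of listed pathway genes within 1.5 times of those reported, and DESeq2 gave 7 higher and 19 lower members. With the replicate block 3 members were higher and 10 lower at an adjusted p under 0.05, where 10.3% and 11.1% of all genes were. In that fit 0 and 0 members passed the study's thresholds, with Sema3c and Epha2 both at an adjusted p of 0.0204 by edgeR. The share of all genes past those thresholds was not counted for it. With the term for Y-linked transcripts the genotype estimate rested on 1 KO library, KO2. Most calls of members and of listed genes were then lost, as were most calls over all genes. When 1 library was left out the members higher numbered 3 to 11, those lower 7 to 23, and the listed genes 13 to 41 higher and 5 to 13 lower. Members past the study's thresholds numbered 0 to 3 and 0 to 6. Each low end was reached without a WT library, where 5.11% to 7.01% of all genes were higher at an adjusted p under 0.05. Each high end was reached without KO3, where 23.9% were. Leaving out any WT library left 0 members past the study's thresholds. Sema3c and Epha2 both had an adjusted p of 0.0173, 0.0211 and 0.0252 by edgeR without WT1, WT2 and WT3. The share of all genes past those thresholds was not counted for these fits either. Plxnb2 changed sign without WT2 (log2 fold change -0.0068) and without KO2 (-0.059), within a range of -0.059 to 0.11 when 1 library was left out, and the cause was not tested. Epha2, Sema3c and Plxna2 held at an adjusted p under 0.05 under all 12 alternatives. Genes near 3 counts, such as Epha10, are limited by depth.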
